A study of Gallus gallus with 12 samples.

Results

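The genes described here carry oxygen in blood, serve haem synthesis or belong to the red blood cell. The globins are the alpha types HBA1, HBAD and HBZ and the beta type HBE. The others are the haem synthesis enzyme ALAS1, the iron carrier SLC25A37, and the red cell genes TSPO2 and EPB42. The members are all probe sets that the array's annotation assigns to one of these 8 symbols alone, which gives 16 of the 38439 probe sets that are not controls. A probe set is a group of short probes read together as 1 signal. Of the 16, 13 had a mean signal above the limit used for testing and 3 lay below it: 1 of 3 for HBA1, 1 of 3 for HBAD and 1 of 4 for SLC25A37. HBE, HBZ, ALAS1 and TSPO2 have 1 probe set each and EPB42 has 2.

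Transcripts were measured in embryonic hearts of Tibetan, Shouguang and Dwarf Recessive White chickens, 3 breeds whose full-sib eggs were incubated in hypoxia or in normoxia. There are 2 arrays in each of the 6 groups, 12 in all. The sources used here give no oxygen level, age, sex of embryos or count of hearts per array, so the 2 arrays of a group may be technical or biological replicates. The Tibetan chicken is a highland breed and the others are lowland ones, and the design sets the response of the heart to hypoxia side by side across them.

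Chicken red blood cells keep their nucleus and go on making globin mRNA in the circulation. The first, primitive red cells arise in the yolk sac and carry embryonic globins. They are later replaced by definitive red cells, which switch to the adult types. HBE (epsilon) and HBZ (the chicken pi gene) are embryonic types. HBA1 (alpha A) is the main adult alpha type. Neither it nor HBAD (alpha D) is confined to definitive cells. In the GRCg7b gene table HBZ, HBAD and HBA1 lie next to each other in this order, and HBE belongs to a second cluster of 4 neighbours, HBE, HBBA, HBE1 and HBBR. The globins are related in sequence, and how far a probe set reads its relatives was not tested.

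The arrays carried the label's tissue. All 14 cardiomyocyte markers on the list were measured, among them TNNT2, NKX2-5 and MYBPC3, and their mean log2 signal lay between 13.44 and 13.63 on every array. These are bulk samples, in which a change in the number of red cells cannot be told apart from a change in mRNA per red cell. Lists of cell type markers were also set against condition and breed. Of all tested probe sets, 51.1% lay above 0 for the mean hypoxia effect. For the mean hypoxia effect 12 of 14 cardiomyocyte genes (median -0.09), 5 of 6 smooth muscle and pericyte genes (-0.20) and 5 of 6 leukocyte genes (-0.06) lay below 0, while 3 of 4 thrombocyte genes (0.27) and 6 of 9 endothelial genes (0.04) lay above. None of these genes passed in limma for that effect, with 0 to 2 per list at an unadjusted p under 0.05. The cardiomyocyte, smooth muscle and thrombocyte medians kept their sign in each breed. The leukocyte median was 0.17 in Shouguang and -0.24 in Dwarf Recessive White, and the endothelial one 0.29 and -0.02. The largest shift was in another list: the mean of 8 measured liver and yolk sac plasma protein genes, ALB and TTR among them, was 7.61 and 8.91 in Tibetan hypoxia against 9.22 to 9.76 in Tibetan normoxia. It was 6.92 and 8.02 against 9.56 and 9.95 in Shouguang, and 6.92 and 7.40 against 8.17 and 8.41 in Dwarf Recessive White, hypoxia before normoxia. Of this list 7 of 8 genes lay below 0 and 2 passed. The part of these lists in the results on red cell genes was not tested. The mean log2 signal of 21 probe sets of 14 genes on the female-specific W chromosome ranged from 6.62 to 9.54 over the arrays.

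HBE was lower in Tibetan than in Dwarf Recessive White hearts by 1.52 ± 0.23 on the log2 scale (SE, 4 arrays per breed), a 2.86-fold difference, and it passed the test across all probe sets (limma adjusted p = 0.00978). This averages both conditions, and the gap was wider in hypoxia. Tibetan and Dwarf Recessive White means were 9.37 and 11.51 in hypoxia, against 9.34 and 10.23 in normoxia. The tested HBA1 and HBAD probe sets, which lie near the top of the scale, differed by 0.14 or less between any pair of breeds. HBZ, the other embryonic type, did not pass.

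In Tibetan hearts HBE had a log2 signal of 9.05 and 9.68 in hypoxia, against 9.77 and 8.92 in normoxia. Shouguang hearts had 10.09 and 9.80 in hypoxia, against 10.27 and 9.74 in normoxia. Dwarf Recessive White hearts had 11.90 and 11.12 in hypoxia, against 10.24 and 10.21 in normoxia. All 4 Tibetan arrays therefore lay below all 4 Dwarf Recessive White arrays, a pattern that was not counted over all probe sets. The Shouguang arrays overlapped with both. By breed mean the order was Tibetan (9.35 ± 0.43, SD, n = 4), Shouguang (9.97 ± 0.25, n = 4) and Dwarf Recessive White (10.87 ± 0.81, n = 4).

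**Figure D1:**
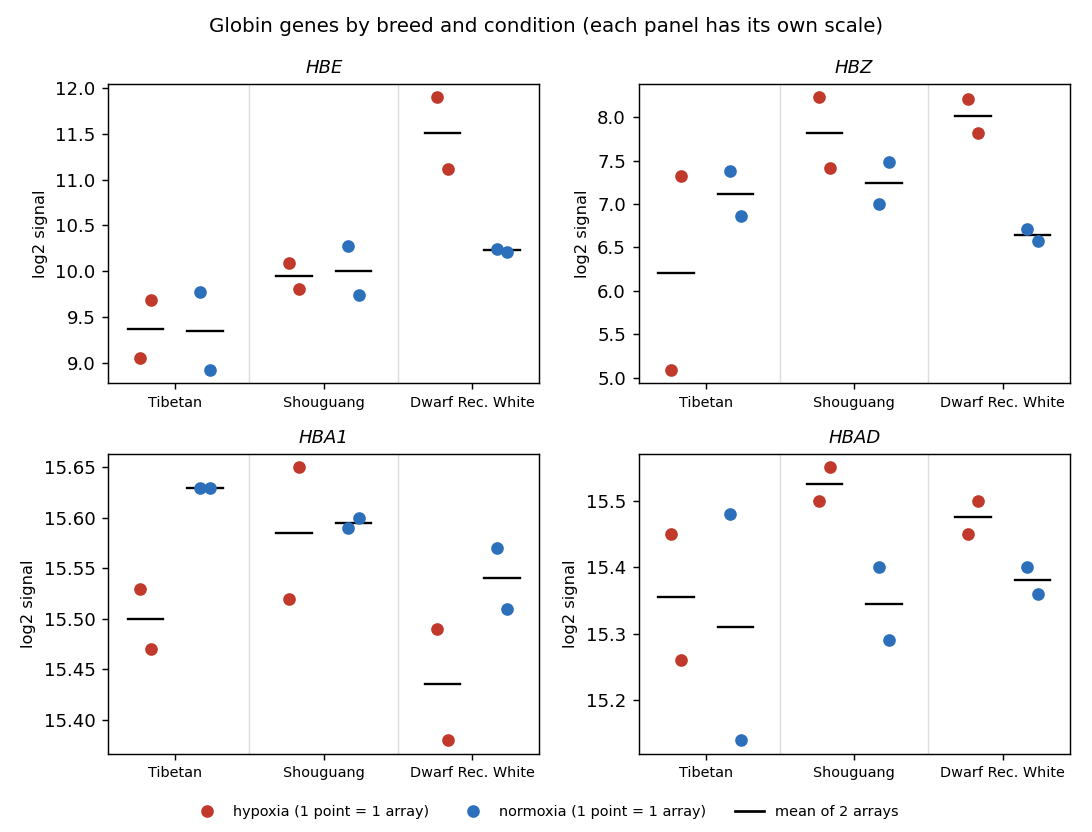
The log2 signal of the 4 globin genes is plotted for each array (red, hypoxia; blue, normoxia; black lines, means of 2 arrays), with breeds along the horizontal axis and 1 scale per panel. HBE spans 2.98 log2 units over the 12 arrays, with its highest values in Dwarf Recessive White hypoxia, while HBA1 spans only 0.27.

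The neighbouring steps in this order did not pass. Tibetan minus Shouguang was -0.62 ± 0.23 (limma adjusted p = 0.273; -0.41 without Tibetan normoxia replicate 2) and Shouguang minus Dwarf Recessive White -0.90 ± 0.23 (limma adjusted p = 0.0894). Over all tested probe sets, the share that passed was 0.759% for Tibetan minus Dwarf Recessive White, where 1 of the 13 member probe sets passed. It was 0.551% for Tibetan minus Shouguang, where none of the 13 members passed and 2 had an unadjusted p under 0.05, against 12.2% of all probe sets.

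The HBE difference between Tibetan and Dwarf Recessive White passed in each of the 12 fits on 11 arrays, with a change of -1.73 to -1.30 and adjusted p-values from 0.00839 to 0.0488. It did not pass without the intensity trend in the variance (limma adjusted p = 0.0883), nor after adjustment for W-linked signal (-1.64, limma adjusted p = 0.162). That level was 9.24 to 9.54 on the Tibetan arrays and 6.62 to 9.47 on the Dwarf Recessive White arrays.

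HBZ, made in primitive red cells like HBE, had signals near the limit used for testing. Tibetan hearts had 5.09 and 7.32 in hypoxia, against 7.38 and 6.86 in normoxia. Shouguang hearts had 8.23 and 7.41 in hypoxia, against 7.0 and 7.48 in normoxia. In Dwarf Recessive White hearts it was 8.21 and 7.82 in hypoxia, against 6.71 and 6.57 in normoxia. The value of 5.09 is under the limit of 6.31 below which a signal counts as dim here. For Tibetan minus Shouguang HBZ differed by -0.87 ± 0.42 (limma adjusted p = 0.433), with a 95% interval from -1.78 to 0.04, and for Tibetan minus Dwarf Recessive White by -0.66 ± 0.42 (limma adjusted p = 0.574). Without the dim array, Tibetan hypoxia replicate 1, these differences were -0.31 and -0.11, and without Tibetan hypoxia replicate 2 they were -1.43 and -1.22.

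HBBR (rho), a further embryonic type, is no member but has a probe set of its own. It differed by -0.33 ± 0.12 for Tibetan minus Dwarf Recessive White (limma adjusted p = 0.291), by -0.27 ± 0.12 for Shouguang minus Dwarf Recessive White (limma adjusted p = 0.424) and by -0.06 ± 0.12 for Tibetan minus Shouguang (limma adjusted p = 0.883). The adult beta globin HBBA has no probe set under its symbol alone and is not described here.

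The alpha types HBA1 and HBAD sat at the top of the scale. The brighter HBA1 probe set had 15.53 and 15.47 in Tibetan hypoxia against 15.63 and 15.63 in Tibetan normoxia, and 15.52 and 15.65 in Shouguang hypoxia against 15.59 and 15.60 in Shouguang normoxia. In Dwarf Recessive White it had 15.49 and 15.38 in hypoxia against 15.57 and 15.51 in normoxia. Its signal was 81.4% to 91.9% of the highest signal on the same array. The HBAD probe set with the higher mean ranged from 15.14 to 15.55, or 64.8% to 92.9% of the highest signal.

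The narrow range of HBA1 is shared by other bright probe sets. Over the 12 arrays the 50 brightest probe sets had a median range of 0.26 log2 units, against 0.65 for the 500 probe sets closest in rank to HBE and 0.94 for all tested. HBE, with its range of 2.98, lay outside the range of 1.16 that 90% of those neighbours in rank did not exceed. A small range at this height does not show that the level of HBA1 or HBAD was the same in all hearts. The remaining HBA1 probe set, with a mean log2 signal of 2.04, and the remaining HBAD one, with 4.57, were under the dim limit on all 12 arrays and disagree with the bright ones in level.

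The balance of embryonic to definitive globin was described per array as the mean log2 signal of the HBE and HBZ probe sets minus that of the HBA1 and HBAD probe sets. It is given relative to its own mean over the 12 arrays, since levels of different probe sets cannot be set against each other, and it carries no test. In Tibetan hearts the balance was -1.66 and 0.12 in hypoxia, against -0.02 and -0.61 in normoxia. Shouguang hearts had 0.40 and -0.18 in hypoxia, against -0.15 and -0.27 in normoxia. Dwarf Recessive White hearts had 1.66 and 0.92 in hypoxia, against -0.17 and -0.05 in normoxia. The 2 highest of the 12 values are those of Dwarf Recessive White hypoxia. Breed means were -0.54 ± 0.81 in Tibetan, -0.05 ± 0.30 in Shouguang and 0.59 ± 0.86 in Dwarf Recessive White (SD, n = 4 each).

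With HBE as the only embryonic gene and the dim HBA1 and HBAD probe sets left out, the breed means were -0.72 ± 0.42, -0.12 ± 0.26 and 0.84 ± 0.80 in the same order of breeds (SD, n = 4 each). This form was chosen after seeing the data and mostly repeats HBE, which spans 2.98 log2 units against 0.27 to 0.41 for the HBA1 and HBAD probe sets kept. All 4 Dwarf Recessive White values were above all 4 Tibetan ones, as for HBE itself, so this adds no support of its own. The dim HBAD probe set, which enters the first form of the balance, had breed means of 4.07 in Tibetan, 5.40 in Shouguang and 4.24 in Dwarf Recessive White. HBAD is made in both kinds of red cell, and HBA1, which is not confined to definitive cells either, was kept in every form. With all its probe sets left out of the first form, the balance had breed means of -0.65 ± 0.86, 0.06 ± 0.37 and 0.59 ± 0.82 (SD, n = 4 each). The dim HBA1 probe set, with a mean log2 signal of 2.04 and a range of 1.51, enters this form and the first one. In a form chosen after seeing the data, only the dim HBA1 and HBAD probe sets were left out of the first form. Its breed means were -0.62 ± 0.72, 0.11 ± 0.30 and 0.52 ± 0.80 (SD, n = 4 each).

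**Figure D2:**
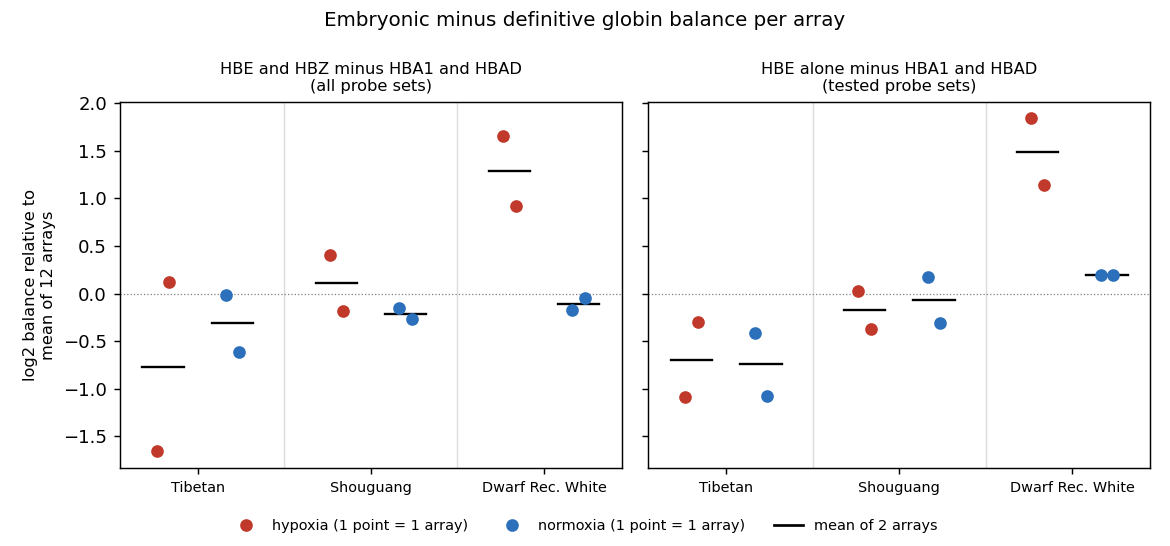
Each point is the embryonic minus definitive globin balance of 1 array in log2 units, relative to the mean of the 12 arrays, with breeds along the horizontal axis, hypoxia in red and normoxia in blue. Dwarf Recessive White hypoxia has the highest pair in both versions, and the lowest single value of the left panel, -1.66, is a Tibetan hypoxia array with a dim HBZ signal.

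No member probe set passed the test for hypoxia. Averaged over the 3 breeds the limma test called 0.0564% of all probe sets and 0 of the 13 members, of which 6 had an unadjusted p under 0.05, against 8.36% of all probe sets. Over the brightest probe set of each member the median change was 0.36, with 6 of 8 above 0, beside a median of 0.01 and 51.1% above 0 over all tested probe sets. The members were chosen with earlier results of these arrays known, so these counts describe them and carry no support of their own.

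HBE and HBZ had their largest values for hypoxia in Dwarf Recessive White hearts. HBE stood at 1.28 ± 0.32 there (limma adjusted p = 0.421, 95% interval 0.59 to 1.98). In Tibetan hearts it was 0.02 ± 0.32, with an interval from -0.67 to 0.72, and in Shouguang hearts -0.06 ± 0.32, from -0.76 to 0.64. HBZ stood at 1.38 ± 0.59 in Dwarf Recessive White (limma adjusted p = 0.767), 0.58 ± 0.59 in Shouguang and -0.91 ± 0.59 in Tibetan. Tibetan hypoxia replicate 1 set the direction of the Tibetan HBZ value, which was 0.21 without it. The Shouguang value was 0.17 without Shouguang hypoxia replicate 1.

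The differences of these effects between breeds were tested and did not pass. For HBE the effect in Tibetan minus that in Dwarf Recessive White was -1.26 ± 0.45 (unadjusted p = 0.0164, limma adjusted p = 1), and Shouguang minus Dwarf Recessive White was -1.34 ± 0.45 (unadjusted p = 0.0116, limma adjusted p = 0.999). In HBZ the first of these was -2.28 ± 0.84 (unadjusted p = 0.0184, limma adjusted p = 1), and -1.17 without Tibetan hypoxia replicate 1. The first HBE difference was -0.83 without Tibetan normoxia replicate 1. The limma test called 0% of all probe sets in each of the 3 comparisons of this kind. Among the 13 members 3 had an unadjusted p under 0.05 for Tibetan minus Dwarf Recessive White, 1 for Shouguang minus Dwarf Recessive White and 0 for Tibetan minus Shouguang, beside 4%, 4.56% and 2.88% of all probe sets.

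HBA1 and HBAD changed little between conditions. Whether signals are compressed at this height was not tested. Averaged over breeds the brighter HBA1 probe set stood at -0.08 ± 0.04 (limma adjusted p = 0.630), with an interval from -0.17 to 0.01. For HBAD it was 0.11 ± 0.06 (limma adjusted p = 0.672), from -0.02 to 0.24. The second tested probe sets gave -0.07 ± 0.04 for HBA1 and 0.05 ± 0.06 for HBAD.

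**Figure D3:**
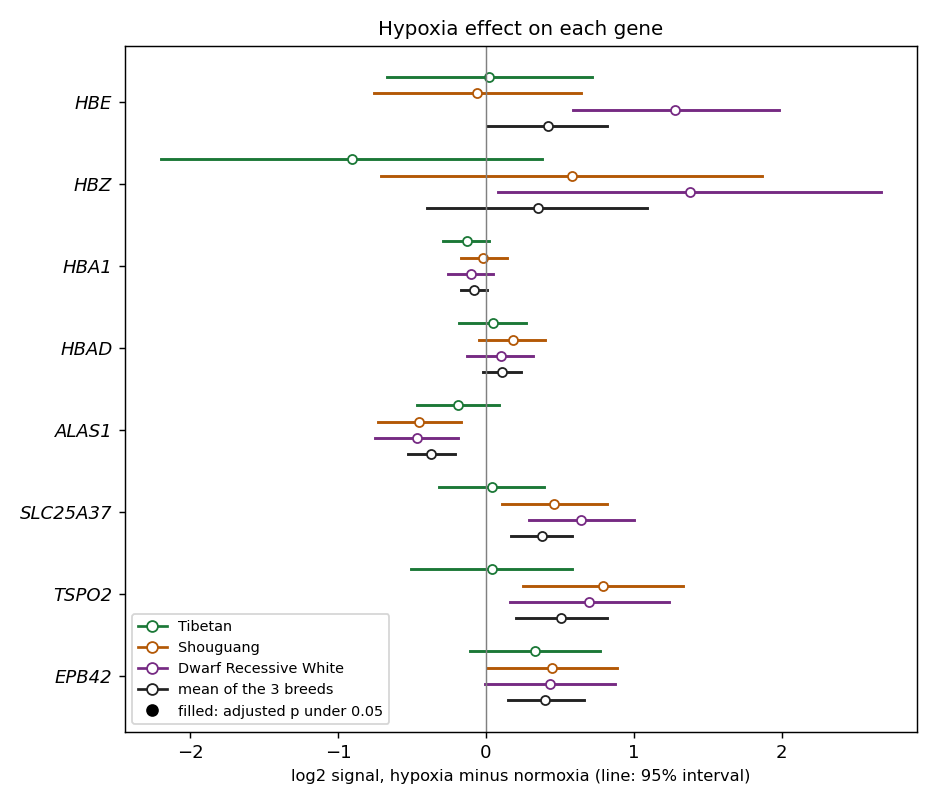
Points give the hypoxia minus normoxia difference in log2 signal for the brightest probe set of each gene, by breed and as the mean of the 3 breeds, with 95% intervals as lines. All points are open because none passed an adjusted p of 0.05. ALAS1 lies below 0 and EPB42 above 0 in each breed, and the HBE interval leaves out 0 in Dwarf Recessive White (0.59 to 1.98).

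ALAS1, which makes the first intermediate of haem, was lower in hypoxia on every pair of arrays within a breed. Tibetan hearts had 11.69 and 11.81 in hypoxia, against 11.84 and 12.04 in normoxia. Shouguang hearts had 11.80 and 11.94 in hypoxia, against 12.23 and 12.40 in normoxia. For Dwarf Recessive White the values were 11.28 and 11.51 in hypoxia, against 11.95 and 11.78 in normoxia. The conditions did not overlap in any of the 3 breeds, a pattern that 1.27% of all tested probe sets show in this direction and 1 of the 13 members.

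The mean effect on ALAS1 was -0.37 ± 0.07 (95% interval -0.53 to -0.21), with an unadjusted p of 0.000335 and a limma adjusted p of 0.125, so it did not pass. By breed it was -0.19 ± 0.13 in Tibetan, -0.45 ± 0.13 in Shouguang and -0.47 ± 0.13 in Dwarf Recessive White hearts, with adjusted p-values from 0.538 to 1 in limma. ALAS1 is the form of the enzyme found in most tissues. The gene table used here also lists the red cell form, ALAS2, as an older name of this entry, so the annotation does not settle which form the probe set reads.

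Between breeds, ALAS1 was higher in Shouguang than in Dwarf Recessive White hearts by 0.46 ± 0.09, a 1.38-fold difference (limma adjusted p = 0.032). The breed means were 12.09 ± 0.28 and 11.63 ± 0.29 (SD, n = 4 each), and the arrays of the breeds overlapped, since hypoxia and normoxia arrays lie apart within each. This comparison called 1.33% of all probe sets and 1 of the 13 members. Tibetan hearts lay between, at 11.84 ± 0.14, with -0.25 ± 0.09 against Shouguang (limma adjusted p = 0.281) and 0.21 ± 0.09 against Dwarf Recessive White (limma adjusted p = 0.371).

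The ALAS1 difference did not rest on any single array, but its call was easily lost. It ended without any 1 of the 4 Shouguang arrays, and without Dwarf Recessive White hypoxia replicate 1, normoxia replicate 1 or normoxia replicate 2, with changes of 0.40 to 0.52 and adjusted p-values of 0.0372 to 0.12 over all such fits. It also ended with median centring (limma adjusted p = 0.116), without the intensity trend (limma adjusted p = 0.159) and in a fit of only the arrays compared (limma adjusted p = 0.0621).

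**Figure D4:**
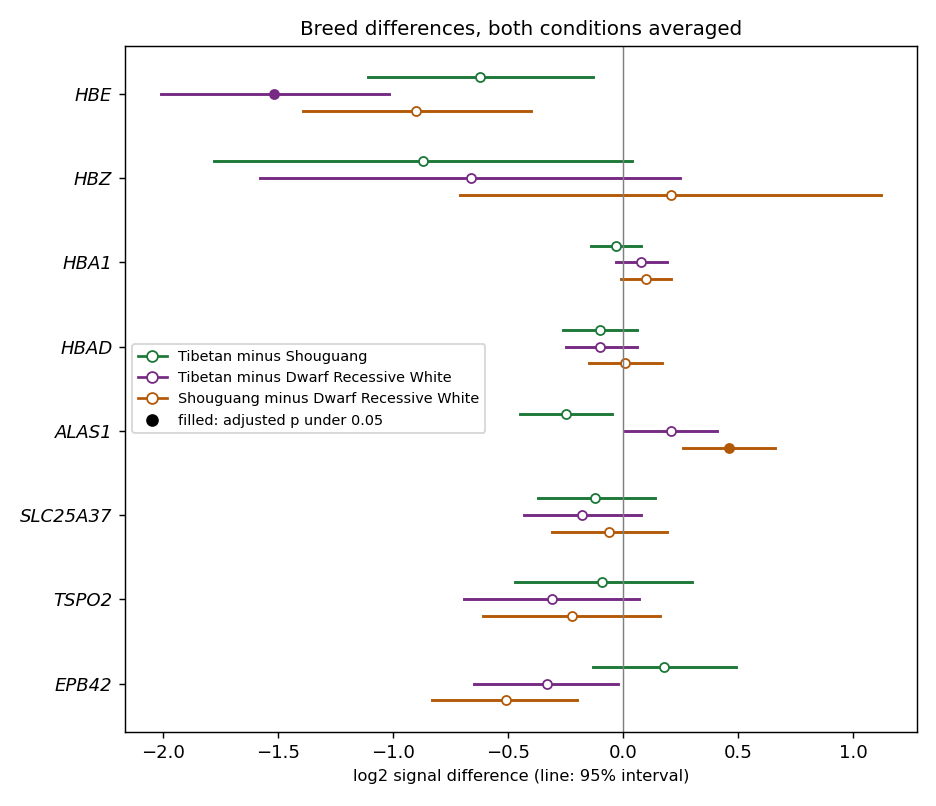
Points give the difference in log2 signal between breeds, averaged over both conditions, for the brightest probe set of each gene, with 95% intervals as lines; filled points passed an adjusted p of 0.05. The filled points are HBE for Tibetan minus Dwarf Recessive White (-1.52) and ALAS1 for Shouguang minus Dwarf Recessive White (0.46).

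SLC25A37 (mitoferrin), which brings iron into the mitochondrion for haem, had values of 9.68 and 9.62 in Tibetan hypoxia, against 9.68 and 9.55 in Tibetan normoxia. Shouguang hearts had 10.07 and 9.89 in hypoxia, against 9.58 and 9.46 in normoxia. In Dwarf Recessive White hearts the signals were 9.97 and 10.29 in hypoxia, against 9.56 and 9.41 in normoxia. The conditions overlapped in Tibetan hearts and lay apart in the other breeds, a pattern that was not counted over all probe sets. By breed the difference was 0.04 ± 0.16 in Tibetan, 0.46 ± 0.16 in Shouguang and 0.64 ± 0.16 in Dwarf Recessive White, and none passed (limma adjusted p = 1, 0.814 and 0.431 in this order). The mean effect was 0.38 ± 0.09 (limma adjusted p = 0.221).

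This describes the brightest of the SLC25A37 probe sets, with a mean log2 signal of 9.73. The other tested ones are dimmer, with means of 7.02 and 6.72, and gave mean hypoxia effects of 0.34 ± 0.27 and -0.55 ± 0.45. The negative value was -0.06 without Tibetan hypoxia replicate 1 and -1.05 without Tibetan hypoxia replicate 2. The positive one was between 0.15, without Dwarf Recessive White normoxia replicate 1, and 0.53, without its replicate 2. The fourth, at 5.63, was under the dim limit on 11 of 12 arrays.

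TSPO2, a relative of the mitochondrial cholesterol-binding protein TSPO that is made in red cell precursors of mammals, had 9.78 and 9.64 in Tibetan hypoxia against 9.42 and 9.92 in Tibetan normoxia. Shouguang hearts had 10.41 and 9.94 in hypoxia, against 9.20 and 9.56 in normoxia. The Dwarf Recessive White values were 10.03 and 10.68 in hypoxia, against 9.73 and 9.57 in normoxia. The conditions overlapped in Tibetan hearts and lay apart in the other breeds, again with 2 arrays against 2 and no count over all probe sets. The difference was 0.04 ± 0.25 in Tibetan, 0.79 ± 0.25 in Shouguang and 0.70 ± 0.25 in Dwarf Recessive White, and on average 0.51 ± 0.14 (limma adjusted p = 0.285). Without Dwarf Recessive White hypoxia replicate 2 the value in that breed was 0.38.

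Whether the smaller Tibetan values of SLC25A37 and TSPO2 differ from those of the other breeds was tested. For SLC25A37, Tibetan minus Dwarf Recessive White was -0.61 ± 0.23 (unadjusted p = 0.0221) and Tibetan minus Shouguang -0.42 ± 0.23 (unadjusted p = 0.091). The TSPO2 differences were -0.66 ± 0.35 (unadjusted p = 0.0831) and -0.76 ± 0.35 (unadjusted p = 0.0528). All 4 had a limma adjusted p of 1. The first TSPO2 difference was -0.34 without Dwarf Recessive White hypoxia replicate 2 and -0.42 without Tibetan normoxia replicate 2.

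**Figure D5:**
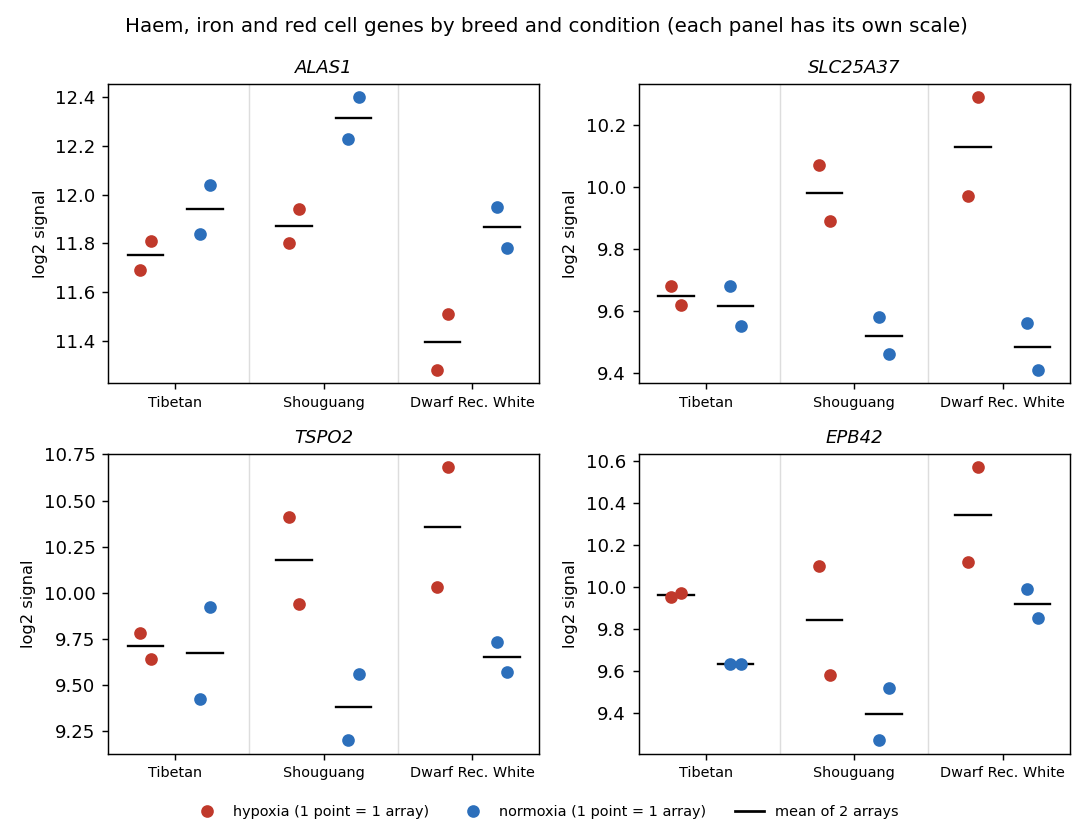
The log2 signal of ALAS1, SLC25A37, TSPO2 and EPB42 is plotted for each array (red, hypoxia; blue, normoxia; black lines, means of 2 arrays), with breeds along the horizontal axis and 1 scale per panel. ALAS1 is lower and EPB42 higher in hypoxia without overlap in each breed, which 1.27% and 1.21% of all tested probe sets show in these directions. SLC25A37 and TSPO2 overlap in Tibetan hearts.

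EPB42 encodes protein 4.2 of the red cell membrane skeleton, which ties the anion exchanger SLC4A1 to the cytoskeleton. Its brighter probe set had 9.95 and 9.97 in Tibetan hypoxia, against 9.63 and 9.63 in Tibetan normoxia. Shouguang hearts had 10.10 and 9.58 in hypoxia, against 9.27 and 9.52 in normoxia. Dwarf Recessive White hearts had 10.12 and 10.57 in hypoxia, against 9.99 and 9.85 in normoxia. Hypoxia was above normoxia without overlap in all 3 breeds, for this probe set and for the second one, a pattern that 1.21% of all tested probe sets show in this direction and 2 of the 13 members, both of this gene.

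By breed the effect was 0.33 ± 0.20 in Tibetan, 0.45 ± 0.20 in Shouguang and 0.43 ± 0.20 in Dwarf Recessive White. It was 0.19 in Shouguang without hypoxia replicate 1 and 0.20 in Dwarf Recessive White without hypoxia replicate 2. The second probe set gave 0.50 ± 0.22, 0.63 ± 0.22 and 0.65 ± 0.22. On average the probe sets stood at 0.40 ± 0.12 (limma adjusted p = 0.310) and 0.59 ± 0.13 (limma adjusted p = 0.153), so neither passed. Between breeds EPB42 was also without a call: Shouguang minus Dwarf Recessive White was -0.51 ± 0.14 (limma adjusted p = 0.121) and Tibetan minus Dwarf Recessive White -0.33 ± 0.14 (limma adjusted p = 0.371).

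Within single breeds no member passed. The limma test called 0% of all probe sets in Tibetan, 0% in Shouguang and 0.00434% in Dwarf Recessive White hearts. Among the 13 members 1, 5 and 6 had an unadjusted p under 0.05 in this order, against 4.45%, 5.52% and 6.33% of all probe sets. The median SE of a within-breed effect was 0.26, so 2 arrays per condition leave intervals as wide as those in the plot of hypoxia effects.

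The rest of the pathway was read from 6 lists of genes, with 114 tested probe sets of 65 genes, none of which passed for the mean hypoxia effect. By the brightest probe set of a gene, 0 to 3 genes per list had an unadjusted p under 0.05. In haem synthesis 12 of 14 measured genes lay above 0, with a median of 0.11. ISCU, a scaffold for iron-sulphur clusters, stood at -0.30 ± 0.08 (limma adjusted p = 0.269), and TMEM14C, a mitochondrial protein needed for haem synthesis in mammals, at 0.21 ± 0.08 (limma adjusted p = 0.458). The last enzyme of the pathway, FECH, which inserts the iron, stood at 0.11 ± 0.12 and ALAD, the second enzyme, at 0.15 ± 0.11.

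Genes of the red cell membrane, cytoskeleton and metabolism had a median of 0.11, with 14 of 21 above 0. BPGM, which makes the haemoglobin effector 2,3-bisphosphoglycerate in mammals, stood at -0.33 ± 0.07 (limma adjusted p = 0.14). TFPI, on this list but an inhibitor of blood coagulation, stood at 0.45 ± 0.11 (limma adjusted p = 0.217). The anion exchanger SLC4A1, partner of EPB42, stood at 0.15 ± 0.29 and the ammonium transporter RHAG at 0.27 ± 0.17. Red cell transcription and signalling genes had a median of 0.09, with 8 of 12 above 0, GFI1B, a repressor in red cell precursors, at 0.83 ± 0.24 (limma adjusted p = 0.306; 0.46 with dim signals raised to the limit, and 0.44 ± 0.27 for its brighter probe set) and the stem cell factor receptor KIT at 0.31 ± 0.12 (limma adjusted p = 0.495).

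Iron uptake and storage genes had a median of -0.04, with 4 of 10 above 0. TF, the plasma iron carrier also on the liver and yolk sac list, stood at -1.24 ± 0.22 (limma adjusted p = 0.0842), and passed with median centring (limma adjusted p = 0.037). Its brightest probe set gave -0.11 ± 0.09 (limma adjusted p = 0.812). The iron sensor IREB2 stood at -0.13 ± 0.08 (limma adjusted p = 0.712). Haem breakdown and export genes had a median of 0.13, with 5 of 6 above 0, and the haem transporter SLC48A1 at 0.27 ± 0.08 (limma adjusted p = 0.285). HMOX2 on this list stood at 0.24 ± 0.09 (limma adjusted p = 0.466). Of the other globins, only MB (myoglobin, -0.24 ± 0.05, limma adjusted p = 0.108) and HBBR (0.09 ± 0.10, limma adjusted p = 0.865) were measured above the dim limit under 1 symbol.

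Between breeds, 2 of the 114 probe sets of these lists (1.75%) passed in each pair, beside 0.551%, 0.759% and 1.33% of all tested probe sets for Tibetan minus Shouguang, Tibetan minus Dwarf Recessive White and Shouguang minus Dwarf Recessive White. They belong to 4 genes. HMOX2, the constitutive haem oxygenase that opens the haem ring, had 11.02 and 10.43 in Tibetan hypoxia, 10.20 and 10.02 in Tibetan normoxia, 8.14 to 8.68 on the 4 Shouguang arrays and 7.64 to 8.10 on the 4 Dwarf Recessive White arrays. All Tibetan arrays lay above all others, a pattern that was not counted over all probe sets. The difference was 2.08 ± 0.16 for Tibetan minus Shouguang (limma adjusted p = 0.000116) and 2.49 ± 0.16 for Tibetan minus Dwarf Recessive White (limma adjusted p = 1.11e-05), and both passed in each of 24 alternative fits. A second, brighter HMOX2 probe set gave -0.07 ± 0.11 (limma adjusted p = 0.847) and 0.38 ± 0.11 (limma adjusted p = 0.142), so the probe sets of this gene disagree.

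PGRMC1, a haem-binding membrane protein, was lower in Shouguang than in Dwarf Recessive White hearts by 0.47 on the log2 scale (-0.47 ± 0.10, limma adjusted p = 0.0351). The call ended without Shouguang hypoxia replicate 2, either Shouguang normoxia array, either Dwarf Recessive White hypoxia array, Dwarf Recessive White normoxia replicate 1 or either Tibetan normoxia array (limma adjusted p up to 0.132). It also ended without the intensity trend (limma adjusted p = 0.154), after adjustment for W-linked signal or with median centring (0.104 each) and in a fit of only the arrays compared (0.0699). CD36, a fatty acid receptor also found on red cell precursors, was higher in Tibetan than in Shouguang hearts by 0.48 ± 0.09 (limma adjusted p = 0.0439). Its call ended without any 1 of the 4 Tibetan arrays, Shouguang hypoxia replicate 1, either Shouguang normoxia array or Dwarf Recessive White hypoxia replicate 2 (limma adjusted p up to 0.123). It also ended after adjustment for W-linked signal (0.36, limma adjusted p = 0.247), without the intensity trend (0.197), with median centring (0.0828), with no filter (0.0703) and with array weights (0.0565).

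CP (ceruloplasmin), a plasma ferroxidase, had 1 of 5 probe sets that passed, higher in Tibetan (0.77 ± 0.13, limma adjusted p = 0.018) and in Shouguang hearts (0.61 ± 0.13, limma adjusted p = 0.0427), each against Dwarf Recessive White. For the first pair, dropping either Tibetan hypoxia array, Tibetan normoxia replicate 1, Dwarf Recessive White hypoxia replicate 2 or either Dwarf Recessive White normoxia array ended the call (limma adjusted p up to 0.0925), as did the W-linked adjustment (0.279) and a fit without the intensity trend (0.0688). The second held in 1 of the 12 fits that left out an array, the one without Shouguang hypoxia replicate 2. It ended as well with the W-linked adjustment, median centring, no filter, no intensity trend and only the arrays compared (limma adjusted p from 0.0535 to 0.0963). The CP probe set with the highest mean signal gave -0.17 ± 0.14 and 0.09 ± 0.14 for the same pairs of breeds.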

How the data were processed

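Total RNA of embryonic hearts was hybridised to Affymetrix chicken genome arrays. The deposited linear signal intensities, 1 for each probe set, came from the authors' GCOS software, per the submitters' processing notes, and average 500.1 per array after the outer 2% at each end were left out. The 96 control probe sets of 38535 were dropped, signals were put on the log2 scale with no further normalization, and the 23063 probe sets with a mean log2 signal at or above the 40th percentile (a signal of 79.5) were tested. The small number of arrays limits the precision.

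A linear model with 1 mean per group was fitted to every probe set (limma 3.58.1 under R 4.3.3), with an intensity trend in the variance (6 residual and 6.16 prior degrees of freedom). Tests were two-sided, with Benjamini-Hochberg adjustment across the tested probe sets of each comparison. The threshold was 0.05, and intervals are 95% intervals of the fit. P-values measure only the spread between these arrays. The members, lists and alternatives were chosen with earlier results of these data known. Named are the 8 member genes, list genes past the threshold, the 2 smallest p-values per list for the mean hypoxia effect, and, chosen after their values were seen, FECH, ALAD, SLC4A1, RHAG, the HBBR breed differences and the other probe sets of HMOX2, CP, TF and GFI1B. For resemblance, the 5 genes with the highest Pearson r to each of 4 members are named.

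Probe sets were named from the platform's annotation: 27168 had 1 symbol, 177 several and 11094 none, and only those with 1 symbol were named. The GRCg7b gene table gave older names, gene order and the W chromosome. In a run tested on simulated data, 200 of 23063 probe sets were changed: a true log2 change of 1 was called in 64% of cases for the mean hypoxia effect and in 24% within a breed. For a true change of 0.5 these shares were 26% and 4%. Alternatives were no filter, a filter at the 60th percentile, quantile normalization, median centring, array weights, an offset of 32, no intensity trend, a block for the replicate number, an adjustment for W-linked signal, a fit of only the compared arrays, the brightest probe set of each gene alone, and omission of each array. The globin balance without HBAD was a further alternative. Chosen after seeing the data were raising dim signals to the limit, leaving out genes on Z and W, and 2 other forms of the globin balance.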

Additional observations from a re-analysis of the deposited data

How the results depend on the processing

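The count of member probe sets past the threshold was 0 for the mean hypoxia effect, 1 for Tibetan minus Dwarf Recessive White and 1 for Shouguang minus Dwarf Recessive White. For Tibetan minus Dwarf Recessive White it was 0 without the intensity trend and after adjustment for W-linked signal. For Shouguang minus Dwarf Recessive White it was 0 with median centring, without the intensity trend and with only the arrays compared, and 0 to 1 when an array was left out. The cause was not tested. In the other 7 comparisons the count was 0 under all alternatives run. With the replicate block the count was 1 for the mean hypoxia effect (ALAS1, limma adjusted p = 0.0323) and 2 for Shouguang minus Dwarf Recessive White (HBE joined, limma adjusted p = 0.0309). The list genes TF (0.0149), ISCU (0.0404), BPGM (0.0456) and MB (0.0466) also passed with it for the mean hypoxia effect. No label says that a replicate number marks a shared batch, and the deviations of equally numbered arrays correlated across probe sets at 0.059 to 0.199 over the 15 pairs of groups. All were positive, so each array deviated more like those of its own number, a hint from the data and not from the design, and 7 of 15 were over 0.1, where pairing was taken to need all. Hypoxia against normoxia of the same breed gave 0.194 in Tibetan, 0.199 in Shouguang and 0.091 in Dwarf Recessive White hearts. A pairing within breeds was not fitted. Of 148 recomputed effects 51 changed sign under at least 1 alternative. All of these were below the threshold, and in none did the 95% interval leave out 0. The breed difference in the globin balance, Tibetan minus Dwarf Recessive White, kept its direction, from -1.56 to -0.76, in alternatives other than median centring, which by construction cannot move it. In normoxia alone the first form of the balance had means of -0.31 in Tibetan and -0.11 in Dwarf Recessive White, and the arrays overlapped. The hypoxia means were -0.77 and 1.29, so the difference lay mostly in the hypoxia arrays. Over all tested probe sets the calls for the mean hypoxia effect, 13 here, were 0 without the intensity trend and 81 with the replicate block. The calls between breeds were 18 and 605 for Tibetan minus Shouguang (127 here) and 100 and 711 for Shouguang minus Dwarf Recessive White (306 here). For Tibetan minus Dwarf Recessive White (175 here) they were 15 with the W-linked adjustment and 579 with the block.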

Other observations

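The genes whose signals most resembled those of 4 members over the 12 arrays were looked up among 18047 tested probe sets of other genes. The arrays share breed and condition, so Pearson r is given as a description of likeness only. HBE was closest to DNAJC27 (0.928), ST6GALNAC5 (0.915), WDYHV1 (0.892), POLA2 (0.882), which encodes a subunit of DNA polymerase alpha, and CSNK1G1 (0.881). Member genes were left out of this search, so HBZ, HBA1 and HBAD could not appear. Their r with HBE was 0.605 for HBZ, 0.442 for HBAD and -0.557 for HBA1. EPB42 was closest to UBE2N (0.918), LYRM7 (0.904), LECT1 (0.895), ATP5J2 (0.895) and ADA (0.871), which encodes adenosine deaminase.

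ALAS1 was closest to PRXL2A (0.934), DDTL (0.932), APOO (0.922), PGP (0.919) and PHB (0.918). APOO and PHB encode proteins of the mitochondrial inner membrane, and a link of any of these genes to haem synthesis was not tested. HBA1 was closest to RPS3A (0.943), CLEC19A (0.888), FBXW2 (0.861), MYBPC3 (0.859) and TIMD4 (0.858). RPS3A and MYBPC3, a ribosomal and a sarcomere gene, had mean log2 signals of 15.26 and 15.38, close to the 15.55 of HBA1 at the top of the scale.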
